A study of Mus musculus with 9 samples.

Results

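The genes described are the enzymes that build fatty acids and set their length and saturation (Acly, Acaca, Acacb, Fasn, Elovl6, Scd1 and Scd2), the lipogenic protein Thrsp, the transcription factor gene Srebf1, and Pck1, which encodes the cytosolic phosphoenolpyruvate carboxykinase. They are 10 of the 23284 genes in a table of read counts from mouse skeletal muscle, matched by symbol. All 10 were found, and all 10 were among the 13198 genes that passed the filter on low counts. They were chosen by measured values, namely their difference between knockout and control libraries with and without controls 4 and 5. Their levels and fold changes are therefore given as descriptions, with no test.

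Messenger RNA was sequenced from the gastrocnemius, the large calf muscle, of 3-month-old mice that had exercised. The 4 knockout libraries came from mice labelled Grpc6afl/fl;Mck-Cre, in which the gene Gprc6a is flanked by loxP sites and Cre recombinase is driven by the promoter of muscle creatine kinase. The 5 control libraries came from mice labelled Grpc6afl/fl, with the same loxP-flanked gene and no Cre. Both groups share the background labelled 129/C57/BL6, and no group with Cre alone and no unexercised group was analysed here, so an effect of Cre and one of the deletion cannot be told apart. The Mck promoter is active in striated muscle fibres. The targeted gene had 0 counts in all 9 libraries, controls included, so its counts do not check the labels. The knockout titles name Gprc5a, another receptor gene, while the genotype and description name Gprc6a. The labels do not say that each library is a separate animal, so the errors and p-values measure the spread between libraries, which may be technical.

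Fatty acids are built from cytosolic acetyl-CoA, which ATP citrate lyase (Acly) makes from citrate. Acetyl-CoA carboxylase turns it into malonyl-CoA, fatty acid synthase (Fasn) joins these units into palmitate, and Elovl6 and the stearoyl-CoA desaturases lengthen and desaturate the product. SREBP-1c, a product of Srebf1, binds sterol regulatory elements in the promoters of many of these genes and is induced by insulin and by liver X receptors. Liver and adipose tissue carry most of this synthesis, while muscle mainly takes up and burns fatty acids. In muscle, the Acacb isoform at the mitochondrion makes malonyl-CoA that restrains carnitine palmitoyltransferase and so fatty acid oxidation. Pck1 is not a lipogenic enzyme: in adipocytes it feeds the making of glycerol 3-phosphate for triglycerides, and in liver it feeds gluconeogenesis.

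Promoter sequence is shown for 4 of the genes: Fasn and the third of 3 annotated starts of Srebf1, the only windows of the set that hold the letters of the sterol regulatory element core, Thrsp, and Elovl6, which had the largest excess in 1 library. The sequences are the 250 bases before the start in RefSeq (build GRCm38.p6), 5′ to 3′ on the gene's strand. Capitals mark TCACCC (the core of a sterol regulatory element) and CCAAT or its complement ATTGG (the CCAAT box, which NF-Y binds).
Fasn promoter, chr11:120824548-120824797, minus strand: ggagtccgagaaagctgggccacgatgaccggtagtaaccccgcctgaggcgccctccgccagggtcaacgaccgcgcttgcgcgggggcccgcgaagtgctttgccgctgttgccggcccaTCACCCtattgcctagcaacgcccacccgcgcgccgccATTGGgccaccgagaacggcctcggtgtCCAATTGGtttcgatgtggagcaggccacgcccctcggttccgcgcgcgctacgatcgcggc
Srebf1 promoter, chr11:60210472-60210721, minus strand: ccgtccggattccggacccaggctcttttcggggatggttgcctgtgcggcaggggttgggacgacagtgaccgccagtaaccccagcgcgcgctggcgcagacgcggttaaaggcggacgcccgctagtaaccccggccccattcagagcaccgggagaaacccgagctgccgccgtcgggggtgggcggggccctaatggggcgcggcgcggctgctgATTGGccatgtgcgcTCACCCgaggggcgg
Thrsp promoter, chr7:97417551-97417800, minus strand: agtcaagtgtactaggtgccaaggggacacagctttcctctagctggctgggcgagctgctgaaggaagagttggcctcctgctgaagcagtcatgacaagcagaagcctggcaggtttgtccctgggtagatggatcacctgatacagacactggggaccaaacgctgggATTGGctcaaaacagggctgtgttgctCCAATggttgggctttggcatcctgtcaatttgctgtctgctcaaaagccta
Elovl6 promoter, chr3:129532136-129532385, plus strand: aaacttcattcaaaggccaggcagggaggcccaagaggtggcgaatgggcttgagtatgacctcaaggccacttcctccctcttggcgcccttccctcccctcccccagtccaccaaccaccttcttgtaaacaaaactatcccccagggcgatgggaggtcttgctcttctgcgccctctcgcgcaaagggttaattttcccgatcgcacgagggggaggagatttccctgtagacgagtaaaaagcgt

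Of the 10 genes, 8 had an entry in the RefSeq promoter table, with 10 windows in all. Scd1 and Scd2 had none. Each window was searched on both strands. TCACCC was found in 2 of 10 windows and in 13.8% of the 32851 RefSeq windows of the same length. In Fasn it began 128 bases before the start and in Srebf1 15 bases before it. CCAAT was found in 5 of 10 windows, against 33.8% of all windows. In Fasn 2 of the 3 CCAAT matches overlap within the letters CCAATTGG, beginning 62 and 59 bases before the start. The GC box GGGCGG, which Sp1 binds, was found in 4 of 10 windows and in 32.7% of all windows. The longer element TCACNCCAC was found in 0 of 10 windows (1.05% of all) and the E-box CACGTG in 0 of 10 (6.02% of all). The Elovl6 and Acaca windows held none of these letters. A match is a description of these letters and does not show a binding site.

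Total counts per library were 19522947 to 22796548 in knockouts and 20401633 to 25608659 in controls, and 3 counts, the most that a count of 0 allows, equal 0.117 to 0.154 CPM (counts set against the size of the whole library). Such limits and the counts behind them reflect counting error alone, because the RNA was amplified and reads are not separate molecules. The tissue label was checked with 12 skeletal muscle markers, which summed to 199790 to 258058 CPM in knockouts and 189546 to 255873 CPM in controls. In edgeR 0 of 13198 genes passed an adjusted p of 0.05 in the lower direction (0%) and 0 in the higher direction (0%). An unadjusted p below 0.05 was reached by 419 genes (3.17%), 182 of them higher in knockouts and 237 lower. DESeq2 called 7 genes, none of them in the set or in the pathway lists described here, and limma-voom called 0.

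In knockout muscle, 9 of the 10 genes had a fitted level below that of control muscle (50.6% of all tested genes did), and the median log2 fold change was -0.85, beside -0.002 over all tested genes. Controls 4 and 5 both stood above the other 7 libraries in 5 genes: Scd1, Fasn, Acaca, Thrsp and Pck1. Over all tested genes the share with that order was 2.25%. Control 4 was the highest of the 9 libraries in 7 of the 10 genes, where 8.47% of all tested genes had their highest value. Without controls 4 and 5 the median of the set was -0.06, beside 0.009 over all tested genes, and 6 of 10 were below 0. Since the genes were selected on these values, the counts describe the selection and are read no further. In 0 of 10 genes did every knockout library lie below every control library (0.371% of all tested genes), and in 0 of 10 did every knockout lie below controls 1 to 3 (1.87% of all tested genes).

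The CPM of the 10 genes summed to 846, 898, 859 and 751 in knockouts 1 to 4. In controls 1 to 5 the sum was 916, 1022, 977, 3036 and 1745 CPM. Every knockout sum lay below every control sum, narrowly for knockout 2 (898 CPM) and control 1 (916 CPM). In 0 of the 10 genes did the libraries separate in this way. Since the genes were selected on these values, the sums are descriptions only. Controls 1 to 3 were nearest the knockouts, with control 5 above them and control 4 above control 5. Scd1 alone made up 23.5% to 31% of this sum in knockouts and 26.1% to 49.2% in controls, with the highest shares in controls 4 and 5.

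**Figure D1:**
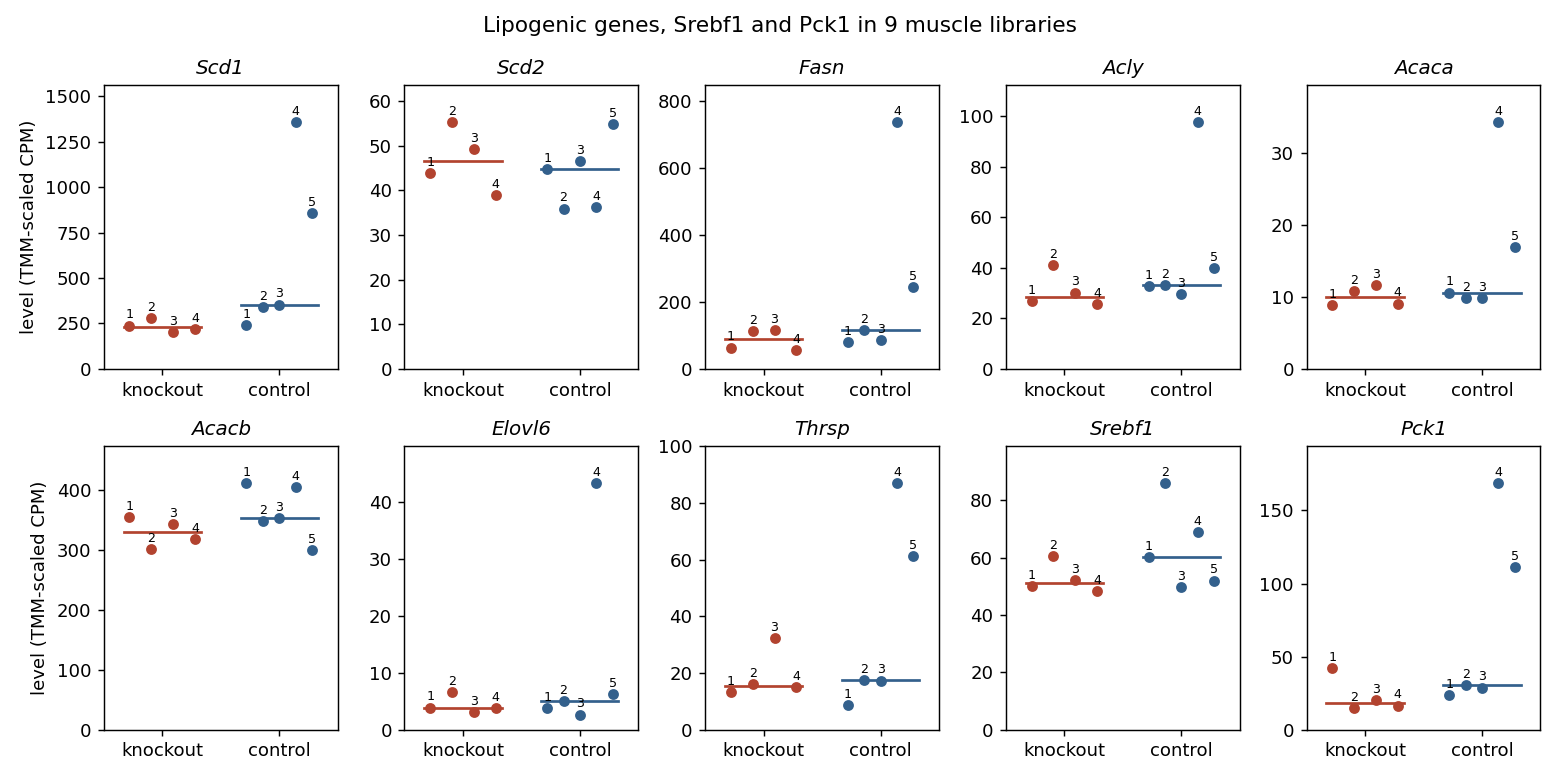
Level of each gene in TMM-scaled CPM (linear axis from 0) in 4 knockout libraries (left, red) and 5 control libraries (right, blue). Each point is a library, the digit is its number and the line is the group median. Controls 4 and 5 stand above the other 7 libraries in Scd1, Fasn, Acaca, Thrsp and Pck1, while Scd2, Acacb and Srebf1 show no such pair.

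Srebf1, the regulator of the pathway, stood at 50.2, 60.6, 52.1 and 48.5 CPM in knockouts 1 to 4 and at 60.2, 86.2, 49.7, 68.9 and 52.0 CPM in controls 1 to 5. The groups overlapped, the highest library was control 2, and controls 4 and 5 lay within the range of the other controls. Its log2 fold change was -0.26 (SE 0.16), and -0.29 (SE 0.17) without controls 4 and 5. Srebf1 thus did not follow the library order of Fasn or Scd1. Of its exon bases, 1.93% overlap Rai1 on the opposite strand, and the counting strand was not given.

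Acly, which makes the cytosolic acetyl-CoA, was at 26.9, 41.2, 30.2 and 25.7 CPM in knockouts 1 to 4 and at 32.9, 33.1, 29.7, 97.7 and 40.0 CPM in controls 1 to 5. Only control 4 stood apart, at 2.37 times the highest other library, which was knockout 2. Its log2 fold change of -0.59 (SE 0.34) was -0.13 without control 4.

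Acetyl-CoA carboxylase has 2 isoforms, and they differed in pattern. Acaca, the cytosolic isoform that supplies fatty acid synthase, was at 8.82, 10.8, 11.6 and 9.07 CPM in knockouts 1 to 4 and at 10.6, 9.83, 9.86, 34.3 and 16.9 CPM in controls 1 to 5. Controls 1 to 3 lay inside the knockout range and controls 4 and 5 above it. The log2 fold change was -0.69 (SE 0.36), and 0.01 (SE 0.15) without controls 4 and 5. The Acaca value is uncertain, since 49.1% of its 50-base words also occur in Gm5182, which has no row in the table.

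Acacb, the mitochondrial isoform of muscle, was at 355, 301, 343 and 318 CPM in knockouts 1 to 4 and at 412, 348, 353, 405 and 300 CPM in controls 1 to 5. Control 5 was the lowest of the 9 libraries and control 1 the highest, so the groups overlapped. Its log2 value was -0.14 (SE 0.11) for knockout minus control, and -0.16 (SE 0.12) without controls 4 and 5. Per kilobase of transcript, the Acacb level was 30.0 to 43.2 times that of Acaca in knockouts and 12.7 to 41.8 times in controls. The size of this ratio depends on the transcript length taken for Acaca. With the median length over all coding transcripts, the knockout means were 38.8 CPM per kilobase for Acacb and 11.3 for Acaca. The words that Acaca shares with Gm5182 also leave the ratio uncertain. The lowest ratios, 12.7 and 19.1, were in controls 4 and 5, where Acaca was high.

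Fasn, which makes palmitate, was at 63.8, 113, 116 and 56.3 CPM in knockouts 1 to 4 and at 80.3, 115, 85.4, 736 and 244 CPM in controls 1 to 5. Controls 1 to 3 lay inside the knockout range, control 5 stood above it, and control 4 was 3.01 times the highest other library. The knockout mean was 87.2 ± 31.5 CPM (SD, n = 4) and the control mean 252 ± 278 CPM (SD, n = 5), a control SD larger than its mean. Its log2 fold change was -1.53 (SE 0.65) with all libraries, -0.59 without control 4 and -0.09 (SE 0.27) without controls 4 and 5.

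Elovl6, which lengthens palmitate to stearate, was at 3.85, 6.53, 3.08 and 3.76 CPM in knockouts 1 to 4 and at 3.81, 4.98, 2.64, 43.3 and 6.18 CPM in controls 1 to 5. Control 4 was 6.63 times the highest other library, which was knockout 2, and control 5 lay inside the knockout range. The log2 fold change of -1.49 (SE 0.79) was -0.02 without control 4 and 0.19 (SE 0.29) without controls 4 and 5. The difference between the group means therefore rested on control 4 alone.

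Scd1, the stearoyl-CoA desaturase that makes oleate, was at 238, 278, 201 and 219 CPM in knockouts 1 to 4. In controls 1 to 5 it was at 239, 342, 354, 1359 and 859 CPM. Controls 4 and 5 were far above all others, and control 1 lay inside the knockout range, so the groups overlapped. The log2 fold change was -1.43 (SE 0.46), -0.94 without control 4, -1.28 without control 5, and -0.40 (SE 0.16) without both. Without both, Scd1 had the lowest fold change of the 10 genes.

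Scd2, the desaturase of brain and of early life, was at 43.8, 55.3, 49.3 and 39.0 CPM in knockouts 1 to 4 and at 44.7, 35.9, 46.5, 36.3 and 54.9 CPM in controls 1 to 5. The groups overlapped throughout, and control 4 was the lowest but one of the 9 libraries. The log2 fold change was 0.10 (SE 0.15). Per kilobase, the Scd1 level was 6.14, 5.68, 4.61 and 6.35 times that of Scd2 in knockouts 1 to 4, and 6.05, 10.8, 8.58, 42.2 and 17.6 times in controls 1 to 5. With the median length over all coding transcripts, the knockout mean of Scd1 was 90.8 CPM per kilobase in place of 48.5. That of Scd2 stayed at 8.59. The 2 desaturase genes share few 50-base words with other genes (4.61% of Scd1 and 4.01% of Scd2, mostly with each other and with Scd3).

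Thrsp, a nuclear and cytosolic protein of lipogenic tissue that rises with feeding and thyroid hormone, was at 13.3, 16.0, 32.2 and 15 CPM in knockouts 1 to 4 and at 8.62, 17.5, 17.3, 87.1 and 61.3 CPM in controls 1 to 5. Knockout 3 stood above controls 1 to 3, and controls 4 and 5 stood above all others. A log2 fold change of -1.0 (SE 0.62) was -0.45 without control 4 and 0.41 (SE 0.36) without controls 4 and 5, so its sign turned.

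Pck1 was at 42.1, 14.7, 20.2 and 16.4 CPM in knockouts 1 to 4 and at 23.6, 30.3, 28.8, 169 and 111 CPM in controls 1 to 5. Knockout 1 stood above controls 1 to 3, and the other 3 knockouts below them. Its log2 fold change, -1.63 (SE 0.63), was the lowest of the 10 genes, and was -0.23 (SE 0.34) without controls 4 and 5. Per kilobase, the Pck1 level was 3.74 to 12.1 times that of its mitochondrial partner Pck2 in knockouts and 7.77 to 55.2 times in controls, with 55.2 and 27.6 in controls 4 and 5.

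**Figure D2:**
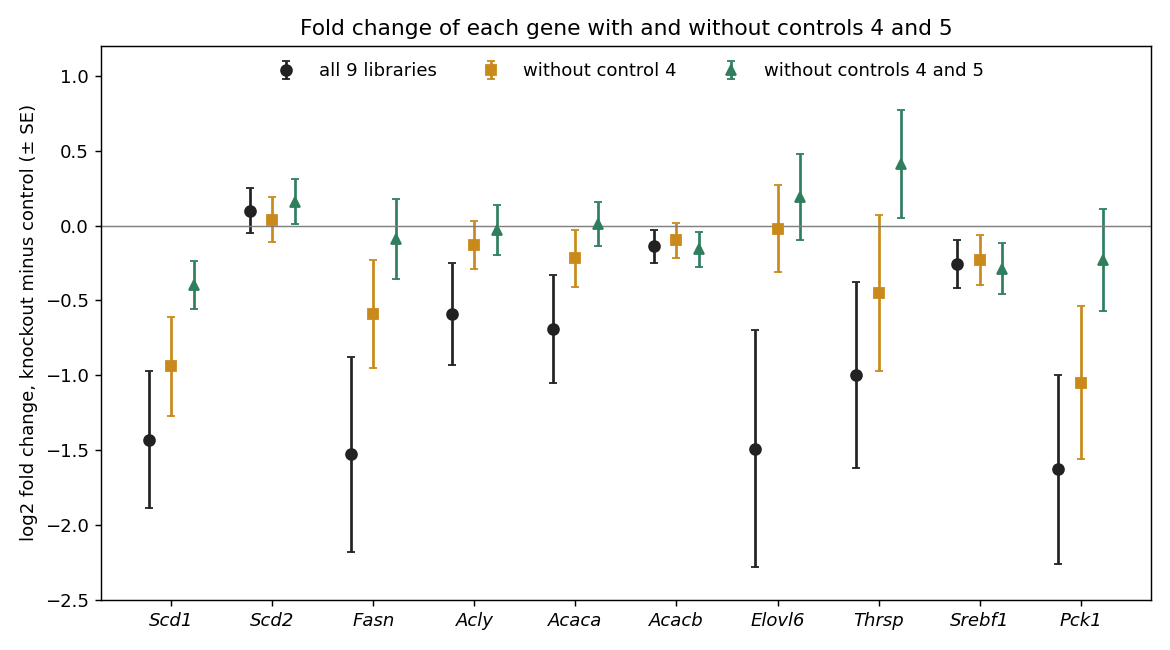
Log2 fold change of each gene, knockout minus control, with its standard error (SE), fitted with all 9 libraries (black circles), without control 4 (orange squares) and without controls 4 and 5 (green triangles). The value of Fasn is -1.53 with all libraries and -0.09 without controls 4 and 5, while Acacb, Scd2 and Srebf1 keep nearly the same value.

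Levels were compared between genes per kilobase of transcript. Scd1 was the most abundant in the medians of both groups (47.3 CPM per kilobase in knockouts and 73.2 in controls), followed by Acacb, with means of 38.1 ± 2.81 in knockouts (SD, n = 4) and 42.1 ± 5.32 in controls (SD, n = 5). In knockouts the next 6 genes had means of 15 ± 6.91 (Thrsp), 12.3 ± 1.26 (Srebf1), 9.49 ± 3.43 (Fasn), 8.77 ± 4.78 (Pck1), 8.59 ± 1.29 (Scd2) and 7.25 ± 1.65 CPM per kilobase (Acly). Each of these overlaps its neighbour in this order within 1 SD. Elovl6 (1.65 ± 0.583) and Acaca (1.09 ± 0.144) were lowest in knockouts. The order depends on the transcript length taken: with the median over all coding transcripts in place of the basic set, Acaca was at 11.3 CPM per kilobase in knockouts and 18.3 in controls.

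**Figure D3:**
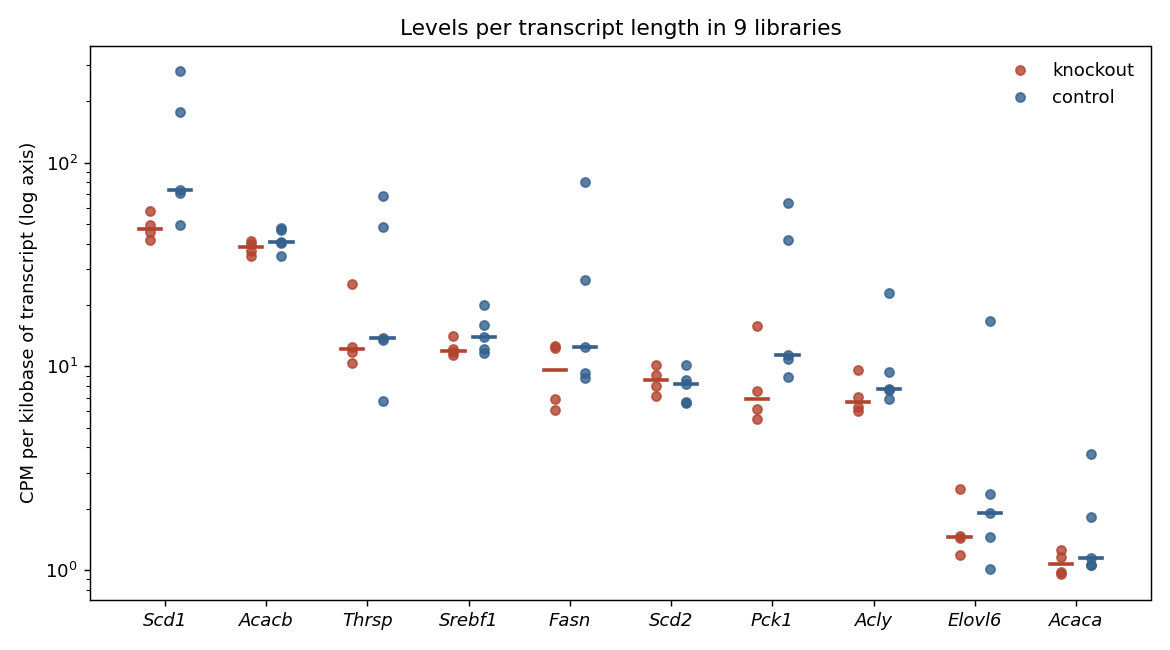
Level per transcript length (CPM per kilobase, log axis) of each gene in the knockout libraries (left of each pair, red) and the control libraries (right, blue), ordered by the knockout median, which the bars mark. Scd1 and Acacb lie highest, and Acaca and Elovl6 lowest.

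White adipocyte markers were high in controls 4 and 5, and brown adipocyte markers were so in part. The 12 genes listed as white adipocyte markers summed to 843, 583, 855 and 794 CPM in knockouts 1 to 4 and to 641, 726, 994, 1428 and 1374 CPM in controls 1 to 5. Controls 4 and 5 both stood above the other 7 libraries in 8 of the 12, beside 2.25% of all tested genes. The 8 were Adipoq, Plin1, Cidec, Retn, Cfd, Fabp4, Pparg and Slc36a2. None of the 12 was at 0 in any library. Their log2 fold changes ran from -1.07 (Plin1, a lipid droplet protein) to 0.33 (Adrb3, a beta-adrenergic receptor), with a median of -0.79, and of -0.07 without controls 4 and 5. Adipoq, which encodes the adipocyte hormone adiponectin, was at 14.9 to 25.5 CPM in knockouts and at 18.1, 20.0, 27.5, 62.5 and 56.7 CPM in controls 1 to 5. The 10 brown adipocyte markers summed to 283 to 411 CPM in knockouts and 246 to 505 CPM in controls, most of it Cox8b, which muscle also expresses, and control 4, at 317 CPM, lay within the knockout range. That order, controls 4 and 5 above the other 7 libraries, held in 3 of the 10, Ucp1, Cidea and Otop1, and not in the other 7, beside the same 2.25%. The 9 that passed the count filter had a median log2 value of -0.18 for knockout minus control, and 0.13 without controls 4 and 5. Ucp1, the heat-producing uncoupler of brown fat, was at 0.0948 to 0.692 CPM in knockouts and at 0.363, 0.607, 0.233, 16.6 and 7.03 CPM in controls 1 to 5. Cidea, a lipid droplet protein, was at 0.996 to 1.98 CPM in knockouts and at 1.59, 1.38, 2.02, 18.4 and 10.3 CPM in controls 1 to 5. In a bulk sample, fewer cells of a type and less RNA per cell cannot be told apart. The part of these adipocyte transcripts in the levels above was not tested. Of the other cell types checked, endothelial markers (6 genes) summed to 277 to 292 CPM in knockouts and 255 to 266 CPM in controls, without overlap. Each of the 6 markers by itself overlapped between the groups, and in edgeR 0 of 6 reached an unadjusted p below 0.05. The part of endothelial transcripts was not tested either. The sums of fibroblast, Schwann cell, macrophage and skin markers overlapped between the groups.

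Relative to Adipoq, control 4 was the highest library for Scd1, Fasn, Thrsp, Pck1 and Elovl6, and not for Acly or Acaca. The lead was narrow for Thrsp (1.39 in control 4, 1.26 in knockout 3) and for Scd1 (21.7 in control 4, 18.7 in knockout 2). Adipoq is a single adipocyte gene, and ratios to other adipocyte markers were not taken. The Fasn to Adipoq ratio was 2.82 to 7.62 in knockouts, and 4.43, 5.74, 3.10, 11.8 and 4.30 in controls 1 to 5. The Elovl6 to Adipoq ratio was 0.121 to 0.439 in knockouts, and in controls it was 0.692 in control 4 and 0.109 in control 5. The Acly to Adipoq ratio was 1.18 to 2.77 in knockouts and 0.706 to 1.82 in controls, and the Acaca ratio 0.410 to 0.725 in knockouts and 0.297 to 0.584 in controls. For these 2 genes the lowest value was that of control 5. The Scd1 ratio was 7.90 to 18.7 in knockouts and 12.9 to 21.7 in controls. The Pck1 ratio was 0.790 to 1.96 in knockouts and 1.05 to 2.70 in controls.

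**Figure D4:**
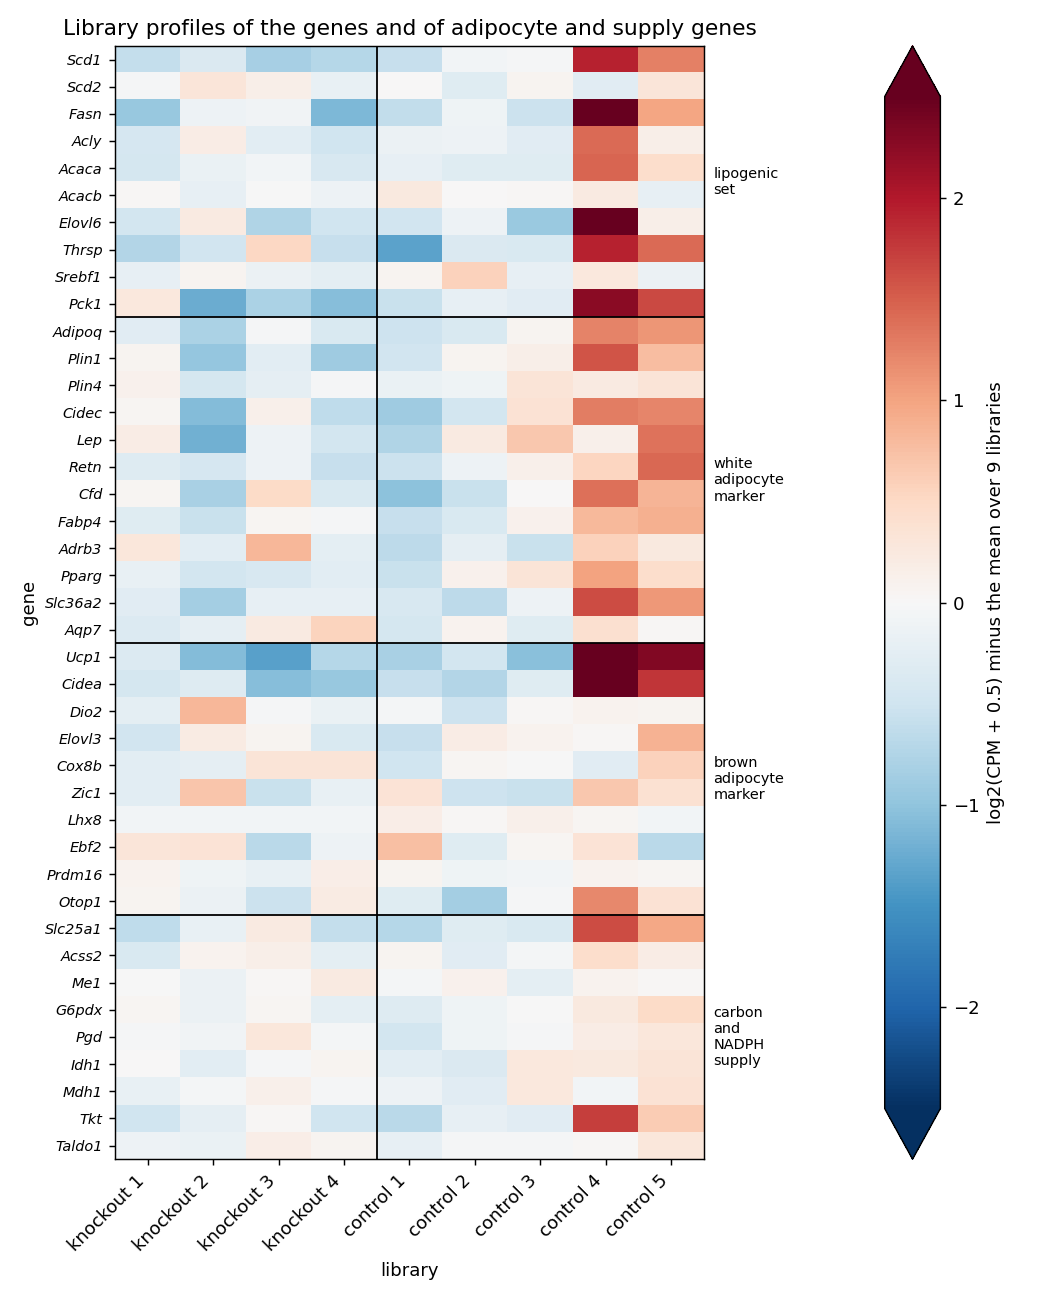
Log2(CPM + 0.5) minus its mean over the 9 libraries for the 10 genes, 12 white and 10 brown adipocyte markers and 9 genes of carbon and NADPH supply, with the 4 knockout libraries left of the 5 control libraries. Red is above the mean and blue below it. Controls 4 and 5 are red for Scd1, Fasn, Thrsp, Pck1, Ucp1, Slc25a1 and Tkt, and not together for Scd2, Acacb or Srebf1. Of the 10 brown adipocyte markers, 3 (Ucp1, Cidea and Otop1) have both above the other 7 libraries.

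Lists of other genes of the pathway held 108 genes, of which 98 passed the count filter. In edgeR 0 of 98 passed the threshold, with a smallest adjusted p of 0.967 over all genes. An unadjusted p below 0.05 was reached by 1 of 98 (1.02%, beside 3.17% of all tested genes), Ptplb, a dehydratase of fatty acid elongation now named Hacd2, with a log2 fold change of -0.64 (SE 0.26). The median of the 98 was -0.05. Controls 4 and 5 stood above the other 7 libraries in 14 of 98 (14.3%, beside 2.25% of all tested genes).

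Among genes of carbon and NADPH supply, 0 of 9 passed the test and 7 lay below 0 (50.6% of all tested genes did), with a median of -0.12. Slc25a1, the mitochondrial citrate carrier, was at 7.43, 10.3, 13.9 and 7.58 CPM in knockouts 1 to 4 and at 6.99, 9.43, 8.93, 37.7 and 23.4 CPM in controls 1 to 5 (log2 fold change -0.81, SE 0.48). Tkt, transketolase of the pentose phosphate pathway, was at 22.6 to 32.8 CPM in knockouts and at 107 and 50.2 CPM in controls 4 and 5. Both gave positive log2 values without controls 4 and 5, 0.23 for Slc25a1 and 0.11 for Tkt. Acss2, which makes acetyl-CoA from acetate, stood at -0.18 (SE 0.16). Controls 4 and 5 were above the other 7 libraries in 4 of these 9 genes, namely Slc25a1, Acss2, G6pdx and Tkt; G6pdx was named after its values were seen.

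Of the triglyceride synthesis genes, 0 of 18 passed and 15 lay below 0, beside the same 50.6%, with a median of -0.15. Controls 4 and 5 stood above the other 7 libraries in 4 of these 18 genes, beside 2.25% of all tested genes. Agpat2 (-0.73, SE 0.37) and Dgat2 (-0.72, SE 0.40), which add the second and the last acyl chain, had their high values in controls 4 and 5. Dgat2 was at 39.8 to 62.8 CPM in knockouts and at 33, 42.2, 62.2, 141 and 124 CPM in controls 1 to 5. Acsl5, an acyl-CoA synthetase, stood at 0.21 (SE 0.11).

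Controls 4 and 5 stood above the other 7 libraries in 0 of 20 regulators of SREBP and of the glucose-responsive factor ChREBP. Over all tested genes the share was 2.25%. In edgeR 0 of these 20 regulators passed, and their median was -0.02. The 3 of smallest unadjusted p were Ppargc1b (-0.53, SE 0.26), a coactivator of SREBP, Insig1 (-0.36, SE 0.19), which holds the SREBP complex in the endoplasmic reticulum, and Mlxip (-0.25, SE 0.15), a ChREBP relative. Genes of carboxylase control showed that library order in 0 of 11, beside the same 2.25%, with a median of -0.05. At that share few genes of lists this size would show the order, so these counts are read no further. Mid1ip1, the paralogue of Thrsp, stood at -0.34 (SE 0.27), with its highest level, 90.9 CPM, in control 5. Prkaa1 and Prkag3, subunits of the kinase AMPK that phosphorylates the carboxylases, stood at -0.17 (SE 0.12) and -0.20 (SE 0.15).

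Other elongases and desaturases gave 0 of 14 past the threshold, with a median of 0.07. Controls 4 and 5 stood above the other 7 libraries in 3 of these 14 genes, beside 2.25% of all tested genes. Besides Ptplb, Elovl7 stood at 0.29 (SE 0.15) and Fads3 at -0.34 (SE 0.19). Cholesterol synthesis and uptake gave 0 of 21 past the threshold, with a median of -0.04. The same library order held in 3 of 21. Of the 21 genes, Stard4, a sterol carrier, stood at -0.81 (SE 0.40) and Cyp51, a sterol demethylase, at -0.34 (SE 0.19). Without controls 4 and 5, Stard4 was at -0.87 and Cyp51 at -0.37. The gluconeogenic partners of Pck1 gave 0 of 5 past the threshold and a median of 0.09, and the library order held in 0 of 5. Pck2 stood at 0.18 (SE 0.14), Fbp2, the muscle fructose bisphosphatase, at 0.30 (SE 0.24) and G6pc3 at 0.09 (SE 0.14).

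The mean centred log2 profile of the 10 genes over the 9 libraries was -0.35, -0.18, -0.23 and -0.54 in knockouts 1 to 4 and -0.36, -0.10, -0.28, 1.46 and 0.60 in controls 1 to 5. Likeness to it was measured as the root mean square difference over these 9 libraries, for 12078 other genes with a mean of at least 1 CPM. The closest was Agpat2 at 0.169, followed by Tkt (0.176), A530016L24Rik (0.188), the potassium channel Kcnk3 (0.189), the liver isoform of glycogen phosphorylase Pygl (0.220), the ketone-using synthetase Aacs (0.227), the phosphatase Acp5 (0.235), Slc25a1 (0.265), Cd1d1 (0.267) and Aldh1a7 (0.279). The median over all genes compared was 0.63. Within the set itself Acaca (0.12) and Acly (0.21) were nearest the mean profile, of which each gene is a part. Scd2 (0.67) and Pck1 (0.65) were farthest from it. In controls 4 and 5, Pck1 stood above the mean profile, at 2.25 and 1.65, while Scd2 was at -0.29 and 0.30.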

How the data were processed

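Messenger RNA of mouse gastrocnemius was measured in 4 knockout and 5 control libraries, grouped by their titles. Per the labels' protocols, RNA of integrity number 6.7 or more was amplified (NuGEN Ovation) and made into Illumina libraries. The authors deposited whole-number read counts for each gene symbol, with no normalization, made with bcl2fastq 1.8.4, Bowtie 0.12.7, TopHat and HTSeq 0.6.1 on mm9, per the submitters' processing notes. The annotation, strandedness and read filters were not given in the sources used here; overlapping and antisense genes cannot be told apart.

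Counts were fitted in R 4.3.3 with edgeR 4.0.16: filterByExpr with a minimum count of 10, TMM scaling, and the robust quasi-likelihood F-test over 13198 genes with Benjamini-Hochberg adjustment at 0.05. Log2 fold changes are knockout minus control, and SEs were obtained from each fold change and its F statistic. Levels are CPM after TMM scaling. No 2 libraries of a group were alike (chi-square per degree of freedom of 16.7 or more). The fit was tested on simulated data. Transcript lengths and shared words came from GENCODE transcripts of GRCm38, used for lengths and names only, and promoter coordinates are those of RefSeq, not of the files' build. The genes, lists and named genes were chosen with earlier results of these data known. Named were all 10 genes, all adipocyte markers as a list, the 3 genes of smallest unadjusted p in each pathway list, and the 10 genes of closest profile; 1 gene so named is not reported here. The alternatives were DESeq2 1.42.0, limma-voom (limma 3.58.1), other scalings and filters, a length correction, each library left out, and sets of libraries left out.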

Additional observations from a re-analysis of the deposited data

Results flagged for a closer look

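In groups of 4 or 5 libraries, a highest or lowest value was marked where its gap to the nearest other value exceeded Dixon's 95% critical share of the range. Of 78 groups tested, 8 were marked, 5 of them in lipogenic genes. These 5 marks are descriptions only, since those genes were selected on these values. Chance marks about 1 in 20 groups, a rate that does not apply to these 5, so the 8 of 78 is not set against it. In control muscle, control 4 stood apart in Fasn (736 CPM, others 80.3 to 244), Acly (97.7 CPM, others 29.7 to 40.0), Acaca (34.3 CPM, others 9.83 to 16.9) and Elovl6 (43.3 CPM, others 2.64 to 6.18). In knockout muscle, knockout 3 stood apart in Thrsp (32.2 CPM, others 13.3 to 16.0). Control 2 stood apart in Prkag3, the AMPK subunit (261 CPM, others 154 to 183), in the summed macrophage markers (150 CPM, others 109 to 120) and in the summed skin and sebaceous gland markers (226 CPM, others 17.0 to 22.7). The skin markers were also raised in knockouts 1 and 2, at 63.0 and 145 CPM, and their part in the lipogenic levels was not tested.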

How the results depend on the processing

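The number of genes called stayed at 0 in 20 of 22 alternatives. DESeq2 called 7, none of them a lipogenic or pathway gene, and the fit with the replicate block, which leaves out control 5, called 1, Fosb, named after its value was seen. No clear pairing by label number was seen. Same-numbered pairs had correlations of -0.082 to 0.469, and 1 of 4 knockouts correlated best with its own number. So few correlations cannot exclude a weak pairing. No pathway gene was called in any of the 22. The median of the 10 genes was -0.85, against -0.06 without controls 4 and 5, and -1.06 to -0.23 with 1 library left out. It lay below 0 in all 22. Scd1 (-1.74 to -0.40), Fasn (-1.76 to -0.09), Pck1 (-2.18 to -0.23), Acly (-0.84 to -0.03) and Srebf1 (-0.34 to -0.13) also stayed below 0 in all 22. The genes were selected on this difference, so these signs are descriptions only. Acaca, Thrsp and Elovl6 passed 0 without controls 4 and 5 (0.01, 0.41 and 0.19). Scd2 did so without knockouts 1 and 2 and control 2 (-0.05), and Acacb did so with the length trend removed (0.03). Without controls 4 and 5 the signs of Acss2 (0.01), Agpat2 (0.04), Dgat2 (0.10), Slc25a1 (0.23) and Tkt (0.11) reversed. Fbp2 reversed (-0.11) without control 5 and knockouts 3 and 4, which were left out together as skewed to short transcripts. In deviations from the group mean, control 5 correlated with knockouts 3 and 4 at 0.56 and 0.26. With knockouts 1 and 2 it correlated at -0.474 and -0.441. Prkag3 reversed (0.02) without knockouts 1 and 2 and control 2, a set chosen after seeing the data. G6pc3 ranged from -0.02 to 0.19 with 1 library left out. The causes of these changes were not tested. Elovl6 and Acaca rest on the fewest reads (65 and 171 at the lowest), so their ratios carry the most counting error.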
